A study of Mus musculus with 12 samples.

Results

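The genes described here are the nuclear genes of oxidative phosphorylation, chosen by name: protein-coding rows whose symbol began with Nduf, Uqcr, Atp5 or Cox4 to Cox8, or was Sdha, Sdhb, Sdhc or Sdhd. The kidney table held 92 of them among 15361 genes, and the F4/80+ table held 90 among 18145 genes. Cox6a2 and Cox8b were in the kidney table alone. By complex, the 92 were 37 subunits and 8 assembly factors of complex I, 4 subunits of complex II, 8 of complex III, 17 of complex IV, the supercomplex factor Cox7a2l and 17 subunits of complex V. Ndufa4 and Ndufa4l2 were placed with complex IV, where the Ndufa4 protein is now known to sit.

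Mitochondria pass electrons from NADH through complex I, or from succinate through complex II, to ubiquinone, then through complex III and cytochrome c to complex IV, which reduces oxygen. Complexes I, III and IV pump protons, and complex V, the ATP synthase, uses the gradient to make ATP. Complex II is made by nuclear genes alone, whereas the other complexes also hold subunits made from mitochondrial DNA. In the kidney, the proximal tubule and the thick ascending limb are especially rich in mitochondria, since their salt transport runs on ATP.

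RNA was sequenced from mice that CRISPR-Cas9 editing had made homozygous for the Trp or the Arg allele of rs3184504, a coding polymorphism of the signalling adaptor gene Sh2b3. There were 4 groups of 3 biological replicates: Trp/Trp F4/80+ preparations, Arg/Arg F4/80+ preparations, Trp/Trp whole kidneys and Arg/Arg whole kidneys. All mice had received angiotensin II, a hormone that raises blood pressure, for 4 weeks, and no library came from mice without it. The F4/80+ preparations came from other kidneys than the whole-kidney libraries and were taken with anti-F4/80 beads after a Percoll gradient.

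Total counts were 35.9 to 51.6 M per F4/80+ library and 19.6 to 54.7 M per kidney library (M for 1000000), of which 6.88 to 11.1 M and 17.8 to 49.99 M fell on nuclear protein-coding genes. Transcripts of mitochondrial DNA took 70.1 to 83.6% of the counts of F4/80+ libraries and 7.86 to 9.35% of those of kidney libraries. Levels are therefore given as CPM, the counts of a gene per 1000000 counts of nuclear protein-coding genes. The F4/80+ libraries did not stand out by macrophage markers. The summed level of 10 such markers was 40.1 to 210 CPM in them, against 138 to 250 CPM in kidney, and none was at 0. The 10 proximal tubule markers summed to 12214 to 38896 CPM in F4/80+ libraries, against 22818 to 27909 CPM in kidney. Kap, an abundant androgen-regulated proximal tubule gene, made up 57.9 to 70.2% of that sum in F4/80+ libraries and 48.6 to 54.2% in kidney, and the other 9 summed to 4183 to 12999 CPM in F4/80+ libraries, against 11699 to 12907 CPM in kidney. Distal nephron and collecting duct markers summed to 3332 to 10644 CPM in F4/80+ libraries, against 2886 to 3062 CPM in kidney. Among kidneys, Trp/Trp replicate 1 stood apart. Its lymphocyte markers summed to 88.8 CPM, against 4.92 to 7.03 CPM in the other 5 kidneys, and its fibroblast and pericyte markers to 729 CPM, against 362 to 392 CPM. Its fat marker sum was 59.9 CPM, against 14.3 and 14.7 CPM in the other Trp/Trp kidneys and 10.9, 11.8 and 5.79 CPM in Arg/Arg kidneys. In bulk libraries of this kind, fewer cells of a type and less RNA per cell cannot be told apart.

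The 90 genes held by both tables took a larger share of the nuclear protein-coding counts in most F4/80+ libraries than in kidney. The share of the genes in each table was 3.39, 2.78 and 3.19% in Trp/Trp F4/80+ replicates 1, 2 and 3 and 2.82, 3.20 and 2.40% in Arg/Arg F4/80+ replicates 1, 2 and 3. It was 2.46, 2.43 and 2.595% in Trp/Trp kidneys and 2.57, 2.46 and 2.62% in Arg/Arg kidneys. Arg/Arg F4/80+ replicate 3 lay below every kidney, and the other 5 F4/80+ libraries lay above every kidney. The 13 subunits made from mitochondrial DNA went further apart, with 19.9 to 43.3 counts per count of the nuclear genes in F4/80+ libraries, against 3.47 to 4.02 in kidney.

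**Figure D1:**
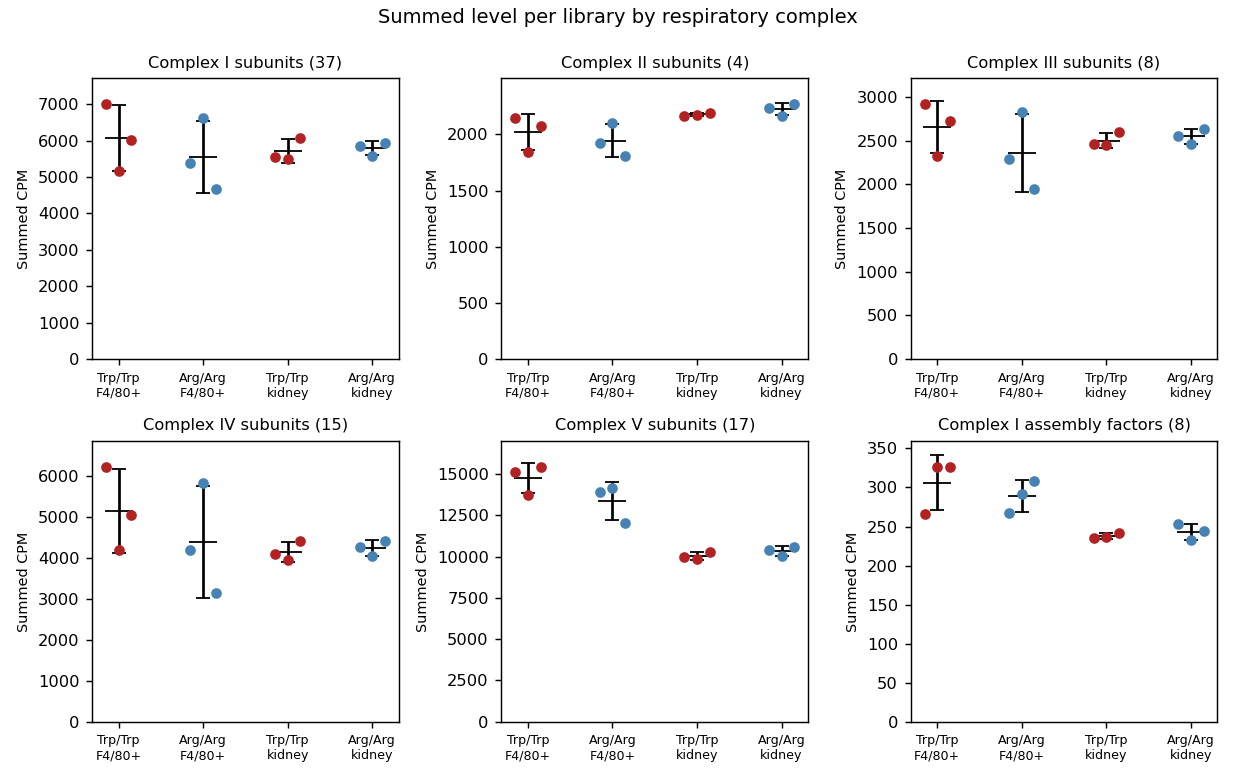
Summed level (CPM over nuclear protein-coding counts) of the subunits of each complex and of the complex I assembly factors, for the 90 genes held by both tables. Points are libraries, bars the mean ± SD of 3 replicates; complex V sums of 12040 to 15452 CPM in F4/80+ libraries lay above the 9865 to 10581 CPM of kidney, while for complexes I, III and IV the ranges of the sample types overlapped.

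Summed by complex, ATP synthase was higher in every F4/80+ library than in any kidney. Its 17 genes summed to 14786 ± 906 CPM in Trp/Trp and 13378 ± 1166 CPM in Arg/Arg F4/80+ preparations, and to 10038 ± 224 CPM in Trp/Trp and 10329 ± 288 CPM in Arg/Arg kidneys (SD, n = 3 each). They made up 44.9 to 51.0% of all subunit counts in F4/80+ libraries, against 40.2 to 41.3% in kidney. Complex II, whose 4 genes summed to 1806 to 2144 CPM in F4/80+ libraries and 2165 to 2272 CPM in kidney, lay lower in every F4/80+ library. The sums here are CPM without the TMM scaling used in the tests below. The median log2 fold change of all genes, F4/80+ over kidney, was -0.13 without that scaling and -0.01 with it. The 8 assembly factors summed to 266 to 327 CPM in F4/80+ libraries, against 233 to 253 CPM in kidney.

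Levels per gene were compared within a sample type as CPM per kb of transcript (1000 bases), the length being the mean of the principal transcripts of the annotation. Atp5b, the catalytic beta subunit of ATP synthase, was highest of all, at 2678 CPM per kb in F4/80+ libraries and 1770 in kidney. In complex I the highest in kidney was Ndufa1, a small X-linked accessory subunit (341 CPM per kb). In complex II it was the flavoprotein Sdha in both, at 351 and 380 CPM per kb in F4/80+ libraries and kidney. In complex III it was Uqcrh, the hinge protein, in F4/80+ libraries (868 CPM per kb) and the small subunit Uqcr10 in kidney (592 CPM per kb). In complex IV it was Cox6a1 in F4/80+ libraries (1712 CPM per kb) and Cox4i1 in kidney (1046 CPM per kb). Assembly factors were low, with medians of 25.7 CPM per kb in F4/80+ libraries and 22.2 in kidney, against 148 and 150 for complex I subunits.

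Genotype was compared in whole kidney first. With edgeR's quasi-likelihood test and Benjamini-Hochberg adjustment, 0 of the 92 genes passed for Trp/Trp over Arg/Arg, and 0 of all 14464 genes tested did (0%). At an unadjusted p under 0.05 there was 1 of the 92, against 5.71% of all genes. DESeq2 called 15 of all genes and 0 of the 92, and the authors' deposited table gave none of the 92 an adjusted p under 0.05. The log2 fold changes were small: 84 of the 92 lay within 0.1 of 0, with a median SE of 0.07. Their median was -0.04, against 0.00 over all genes tested, and 18 of 92 were positive. Single libraries moved that count, though positive values stayed the fewer each time. Dropping 1 of Trp/Trp replicates 1, 2 and 3 left 44, 36 and 7 positive values, and dropping 1 of Arg/Arg replicates 1, 2 and 3 left 24, 12 and 30. The median stayed negative in each of these fits, from -0.10 with the third Trp/Trp kidney dropped to -0.01 with the first dropped. By kidney genotype, all 10 macrophage markers, all 7 fibroblast and pericyte markers and all 5 tested lymphocyte and all 5 tested fat markers had positive log2 fold changes, none of which passed, and their part in these values was not tested.

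In complex I, 6 of 37 subunits had a positive log2 fold change in kidney and none passed. Ndufa9, an accessory subunit near the ubiquinone site, had 239, 232 and 231 CPM in Trp/Trp kidneys, against 251, 241 and 256 CPM in Arg/Arg kidneys. All Trp/Trp values lay below all Arg/Arg values, by a log2 fold change of -0.11 ± 0.05 (SE; edgeR adjusted p = 0.843). Ndufb6, of the membrane arm, had 98.0, 89.9 and 95.9 CPM in Trp/Trp kidneys, against 102, 96.7 and 106 CPM in Arg/Arg kidneys, with 1 value of each genotype crossing (-0.12 ± 0.06, edgeR adjusted p = 0.843). Ndufs6, a zinc-binding subunit, overlapped too, at 136, 129 and 138 CPM in Trp/Trp and 144, 133 and 146 CPM in Arg/Arg kidneys. Among the assembly factors, Ndufaf8, which works with Ndufaf5 on the core subunit Ndufs7, had 18.1, 18.9 and 16.9 CPM in Trp/Trp kidneys, against 20.9, 19.1 and 20.5 CPM in Arg/Arg kidneys. It was the gene with an unadjusted p under 0.05 (-0.18 ± 0.08, edgeR adjusted p = 0.843). Ndufaf6, the 1 gene whose Trp/Trp values all lay above the Arg/Arg values, had 22.6, 22.4 and 21.8 CPM in Trp/Trp and 21.2, 20.5 and 21.1 CPM in Arg/Arg kidneys.

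Complex II and III genes moved little in kidney. Sdha had 1089, 1106 and 1061 CPM in Trp/Trp kidneys, against 1122, 1090 and 1136 CPM in Arg/Arg kidneys, which overlapped (log2 fold change -0.06 ± 0.05). Sdhc, a membrane anchor of the complex, had -0.06 ± 0.05 and Sdhb, the iron-sulfur subunit, -0.04 ± 0.07. In complex III the gene furthest from 0 was Uqcrq, a small subunit, with 209, 206 and 241 CPM in Trp/Trp and 234, 216 and 249 CPM in Arg/Arg kidneys (-0.11 ± 0.08). Uqcrb and the Rieske iron-sulfur protein Uqcrfs1 had -0.08 ± 0.06 and -0.07 ± 0.05. None of these passed the edgeR test.

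The largest values in kidney belonged to complex IV isoforms of other tissues, all at low level. Cox8b, the form of heart, muscle and brown fat, had 2.80, 0.73 and 1.57 CPM in Trp/Trp kidneys, against 0.92, 1.06 and 0.54 CPM in Arg/Arg kidneys. The groups overlapped, and the log2 fold change of 0.96 ± 0.47 (edgeR adjusted p = 0.843) was 0.30 without Trp/Trp replicate 1, the library with the highest fat marker sum. In that library all 5 fat markers in the table were at their highest, Ucp1 of brown fat at 3.79 CPM, against 1.77 and 2.53 CPM in the other Trp/Trp kidneys and 0.50 to 0.99 CPM in Arg/Arg kidneys. The part of fat RNA in the Cox8b value was not tested. Cox6a2, the heart and muscle form of subunit 6a, had 0.95, 0.61 and 0.11 CPM in Trp/Trp kidneys, against 1.40, 0.86 and 0.77 CPM in Arg/Arg kidneys (-0.75 ± 0.50). Ndufa4l2, a paralog of Ndufa4 known to be induced by hypoxia, had 6.01, 4.41 and 3.99 CPM in Trp/Trp and 3.73, 3.58 and 4.55 CPM in Arg/Arg kidneys (0.27 ± 0.18).

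ATP synthase genes had positive values in 4 of 17 cases in kidney. Atp5b had 3315, 3358 and 3358 CPM in Trp/Trp kidneys, against 3400, 3395 and 3518 CPM in Arg/Arg kidneys, a separation of a few percent with no overlap. Atp5h, subunit d of the stalk, had 330, 320 and 326 CPM in Trp/Trp and 351, 334 and 348 CPM in Arg/Arg kidneys (-0.10 ± 0.05, edgeR adjusted p = 0.843). Atp5j and Atp5pb, also of the stalk, had -0.09 ± 0.06 and -0.08 ± 0.06. In all, 6 of the 92 genes (6.52%) were lower in every Trp/Trp kidney than in any Arg/Arg kidney, namely Atp5a1, Atp5b, Atp5h, Ndufa9, Ndufaf4 and Ndufaf8, against 3.67% of all genes. Ndufaf6 alone (1.09%) was higher in every one, against 6.59% of all genes.

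In F4/80+ preparations, 0 of 89 genes tested differed by genotype in edgeR's quasi-likelihood test, with 0 of all 15225 genes (0%). None of the 89 had an unadjusted p under 0.05, against 8.04% of all genes. DESeq2 called 14 of all genes and 0 of these, and the authors' deposited table gave an adjusted p for 58 of the 90, with 0 under 0.05. The spread was wide, with a median SE of a log2 fold change of 0.28. The median coefficient of variation within genotype groups, pooled over both genotypes, was 20.8% for the 86 genes of at least 10 CPM. It was 21.7% over all genes of that level. In kidney it was 5.23% for 87 genes, against 6.21% over all genes of that level. The median log2 fold change of the 89 genes in F4/80+ preparations was 0.03, and 50 of the 89 were positive. That median changed with single libraries, being -0.13 once Trp/Trp replicate 1 was dropped and 0.22 once Arg/Arg replicate 2 was dropped. Its sign also turned with every library kept. It was -0.01 with DESeq2 (42 of 90 positive) and -0.0018 with RLE scaling (44 of 89 positive). The median over all genes was 0.01 in the main fit, -0.01 with DESeq2 and -0.02 with RLE scaling. Dropping Trp/Trp replicate 1 left 25 positive values, and dropping 1 of Arg/Arg replicates 1, 2 and 3 left 26, 75 and 23.

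**Figure D2:**
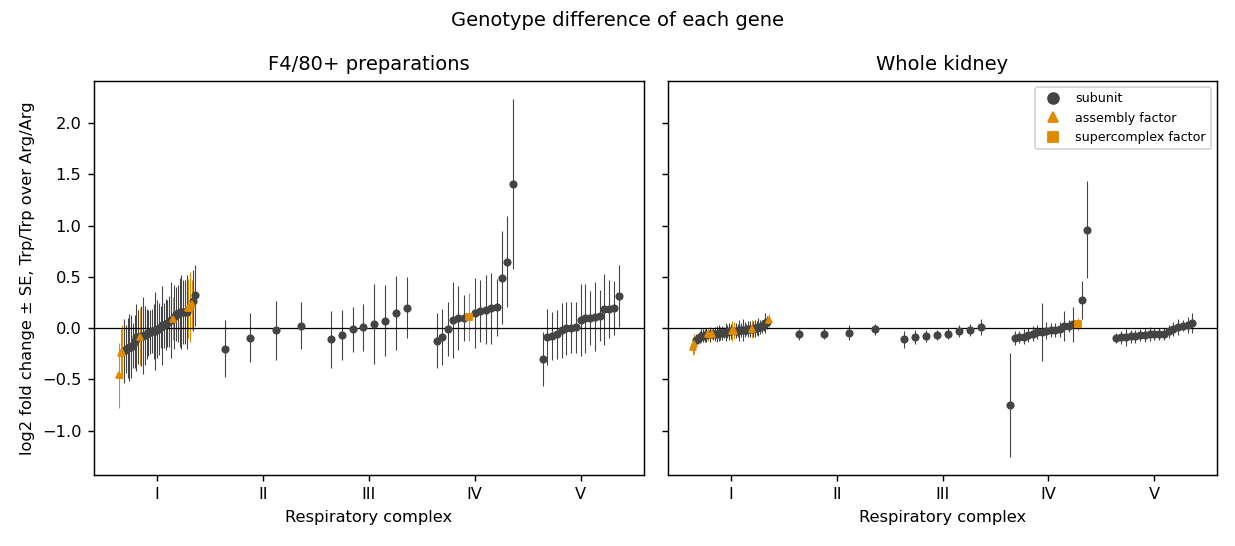
Log2 fold change of Trp/Trp over Arg/Arg with its SE from edgeR for each gene, by respiratory complex, in F4/80+ preparations (left) and whole kidney (right). No gene passed in either; 84 of 92 kidney values lay within 0.1 of 0, against 43 of 89 in F4/80+ preparations.

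By complex, the median log2 fold changes of subunits in F4/80+ preparations were -0.01 for complex I, -0.06 for II, 0.02 for III, 0.16 for IV and 0.08 for V. The gene furthest from 0 was Ndufa4l2, with 1.35, 3.05 and 1.31 CPM in Trp/Trp, against 0.87, 1.14 and 0 CPM in Arg/Arg preparations. All Trp/Trp values lay above all Arg/Arg values, at a level near the bottom of the range that was tested (1.41 ± 0.83, edgeR adjusted p = 0.692). Cox7a1, the heart and muscle form of subunit 7a, had 13.7, 7.40 and 13.7 CPM in Trp/Trp and 8.14, 9.73 and 2.93 CPM in Arg/Arg preparations, which overlapped (0.65 ± 0.44). Cox6b2, the testis form of subunit 6b, had 3.41, 2.23 and 3.94 CPM in Trp/Trp and 2.47, 2.40 and 1.47 CPM in Arg/Arg preparations (0.49 ± 0.46).

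More abundant genes overlapped between genotypes in the same way. Atp5g1 had 902, 614 and 766 CPM in Trp/Trp and 593, 705 and 392 CPM in Arg/Arg F4/80+ preparations (0.31 ± 0.30). Ndufa11, an accessory subunit of the membrane arm, had 135, 88.2 and 115 CPM in Trp/Trp and 92.6, 111 and 56.1 CPM in Arg/Arg preparations (0.26 ± 0.30). Uqcr10 had 543, 296 and 371 CPM in Trp/Trp and 286, 483 and 225 CPM in Arg/Arg preparations (0.15 ± 0.36). In each of these the lowest of the 6 values was Arg/Arg replicate 3. Of the 89 genes, 2 (2.25%) were higher in every Trp/Trp than in any Arg/Arg library, against 7.19% of all genes, and 0 were lower in every one, against 3.33%. They were Ndufa4l2 and Cox5a, a complex IV subunit that had 163, 165 and 189 CPM in Trp/Trp and 155, 160 and 126 CPM in Arg/Arg preparations (0.10 ± 0.22, edgeR adjusted p = 0.973).

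Genes with the opposite sign were fewer in the named set. Ndufs1, the large iron-sulfur subunit of complex I, had 313, 413 and 415 CPM in Trp/Trp and 432, 323 and 439 CPM in Arg/Arg preparations (-0.20 ± 0.23). Ndufaf6 had 14.1, 12.1 and 17.1 CPM in Trp/Trp and 13.1, 21.99 and 18.4 CPM in Arg/Arg preparations (-0.46 ± 0.31). Atp5md, a small membrane subunit of ATP synthase, had 109, 101 and 126 CPM in Trp/Trp and 112, 160 and 103 CPM in Arg/Arg preparations (-0.30 ± 0.26).

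**Figure D3:**
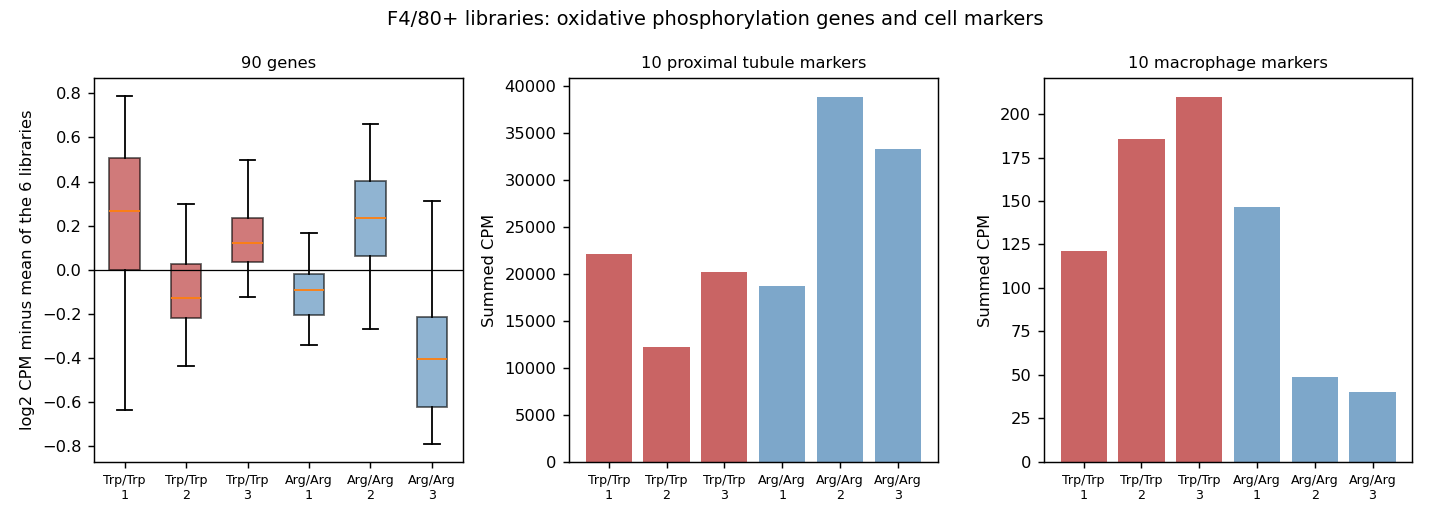
The 6 F4/80+ libraries, Trp/Trp left of Arg/Arg. Left, boxes (median, quartiles, whiskers to 1.5 quartile ranges, outliers not drawn) of the log2 CPM of 90 genes minus each gene's mean; middle and right, summed CPM of 10 proximal tubule and 10 macrophage markers. Arg/Arg replicate 3 had the lowest median, -0.41 (-0.16 over all genes), and with Arg/Arg replicate 2 the least macrophage marker RNA.

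Most of the genes were at their lowest in a single F4/80+ library. Arg/Arg replicate 3 held the lowest value of 68 of the 90 genes (75.6%), against 30.1% of all genes. The highest values were in Trp/Trp replicate 1 for 34 genes (37.8%, against 22.4% of all genes). They were in Trp/Trp replicate 3 for 27 (30%, against 13.0%) and in Arg/Arg replicate 2 for 22 (24.4%, against 9.75%). Relative to the mean of the 6 libraries, the median of the 90 genes was 0.26, -0.13 and 0.12 log2 units in Trp/Trp replicates 1, 2 and 3. It was -0.09, 0.23 and -0.41 in Arg/Arg replicates 1, 2 and 3. Over all 12878 genes compared, the medians in the same order were 0.06, 0.16 and 0.06 in Trp/Trp and 0.11, -0.17 and -0.16 in Arg/Arg. Not all of the 90 genes followed their median: Ndufs1, given above, was lowest in Trp/Trp replicate 1 and highest in Arg/Arg replicate 3. Within genotype groups, Sdha varied least of the genes of at least 10 CPM, with a pooled coefficient of variation of 4.03%, and Uqcr11 most, with 42.1%.

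Cell markers differed between the same libraries. Proximal tubule markers summed to 22175, 12214 and 20227 CPM in Trp/Trp and to 18681, 38896 and 33307 CPM in Arg/Arg F4/80+ preparations. Macrophage markers summed to 121, 186 and 210 CPM in Trp/Trp and to 147, 48.5 and 40.1 CPM in Arg/Arg preparations. Thick ascending limb markers summed to 5327, 11020 and 5060 CPM in Trp/Trp and to 5619, 2587 and 2672 CPM in Arg/Arg preparations. Distal nephron and collecting duct markers summed to 8365, 10644 and 7697 CPM in Trp/Trp and to 9587, 3707 and 3332 CPM in Arg/Arg preparations. Arg/Arg replicates 2 and 3, alike in all 4 sums, were among the highest and the lowest of the 6 libraries for the oxidative phosphorylation genes. All 10 macrophage markers had a positive log2 fold change by genotype as did all 5 of the thick ascending limb and all 8 of the distal nephron, while all 10 proximal tubule markers had a negative one. None of these markers passed. Their part in the values above was not tested.

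The difference of the genotype effects between sample types was tested as an interaction over all 12 libraries. None of 90 genes passed, with 0 of all 13578 genes tested (0%) by edgeR's quasi-likelihood test. At an unadjusted p under 0.05 there were 0 of the 90, against 6.78% of all genes, and DESeq2 called 7 of all genes and 0 of these. Without Arg/Arg F4/80+ replicate 1, 580 of 13701 genes tested passed, a small share of all genes, and none of them was among the 90.

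Sample type was compared as F4/80+ over kidney on nuclear protein-coding genes present in the F4/80+ and the kidney table. Of the 90 genes, 52 (57.8%) passed edgeR's quasi-likelihood test with Benjamini-Hochberg adjustment, against 64.3% of all 13578 genes. They were 33 higher (36.7%, against 32.3% of all genes) and 19 lower in F4/80+ preparations (21.1%, against 32.0%). The scaling moved this split: without TMM, 27 were higher (30%, against 26.4% of all genes) and 30 lower (33.3%, against 37.4%), and the median of all genes was -0.13 instead of -0.01. The median of the 90 was 0.16 with TMM and 0.02 without. In 20 genes (22.2%, against 15.2% of all genes) every F4/80+ level in CPM lay above every kidney level, and in 19 genes (21.1%, against 27.0%) below. Sample type cannot be told apart from cell isolation, from the table and from its processing, for which the submitters' notes name both STAR and DRAGEN without saying which served which table. Within Trp/Trp libraries alone 44 passed (48.9%, against 50.1% of all genes), and within Arg/Arg libraries alone 34 (37.8%, against 48.9%). Of the distal nephron markers 6 of 8 were higher and 1 lower in F4/80+ preparations (median 1.30), and of the proximal tubule markers 2 of 10 were higher and 5 lower (median -0.85). Of the macrophage markers 3 of 10 were higher and 5 lower (median -0.95), and the part of these cell types in the values that follow was not tested.

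**Figure D4:**
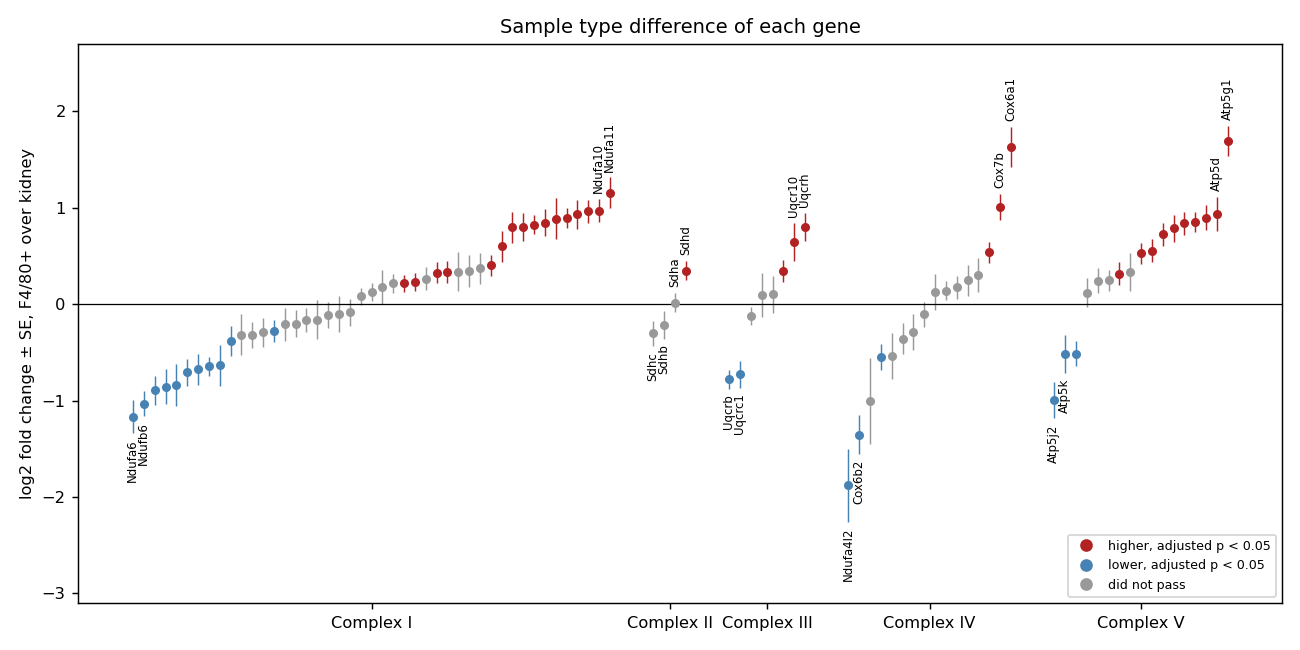
Log2 fold change of F4/80+ over kidney with its SE from edgeR for each of 90 genes, ordered within each complex (complex I with its assembly factors, complex IV with Cox7a2l), over all 12 libraries. Red genes passed as higher, blue genes as lower and grey genes did not pass; the range was -1.88 (Ndufa4l2) to 1.70 (Atp5g1).

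In ATP synthase, 10 of 17 genes were higher and 3 lower in F4/80+ preparations, against 32.3% and 32.0% of all genes. The subunits of the catalytic head and central stalk rose: Atp5a1 (alpha) by 0.53 ± 0.11, Atp5b (beta) by 0.72 ± 0.12, Atp5c1 (gamma) by 0.86 ± 0.10 and Atp5d (delta) by 0.94 ± 0.18, while Atp5e (epsilon) had 0.33 ± 0.19 and did not pass. Atp5b had 5465, 4951 and 5548 CPM in Trp/Trp and 5128, 5000 and 4692 CPM in Arg/Arg F4/80+ preparations, against the kidney values of 3315 to 3518 CPM. The lowest F4/80+ value was thus above the highest kidney value, and the edgeR adjusted p was 0.000142. In the other direction went 3 small membrane subunits, namely Atp5j2 (subunit f) at -0.996 ± 0.19, Atp5k (subunit e) at -0.52 ± 0.19 and Atp5md at -0.51 ± 0.13. Atp5j2 had 185, 108 and 132 CPM in Trp/Trp and 107, 174 and 82.2 CPM in Arg/Arg F4/80+ preparations, against 262 to 314 CPM in kidney, with no overlap. Atp5k is less firm, with F4/80+ values of 73.6 to 190 CPM that overlapped the 181 to 229 CPM of kidney, and it did not pass within either genotype or when any 1 of 6 libraries was left out. These were replicate 3 of Trp/Trp and of Arg/Arg kidneys, Trp/Trp F4/80+ replicates 2 and 3 and Arg/Arg F4/80+ replicates 1 and 3. The small membrane subunits Atp5l (subunit g) and Atp5mpl were higher, by 0.90 ± 0.13 and 0.79 ± 0.14.

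Subunit c, which forms the proton-driven ring of ATP synthase, is encoded by Atp5g1, Atp5g2 and Atp5g3, whose mature proteins are the same. The ends of the 3 coding sequences are shown because reads can be assigned to a gene only where the letters differ, and Atp5g1 had the highest log2 fold change of the 90 genes. The last 75 coding bases are printed from GENCODE M21 transcripts, with capitals at the 20 positions where the 3 are not all alike.
Atp5g1: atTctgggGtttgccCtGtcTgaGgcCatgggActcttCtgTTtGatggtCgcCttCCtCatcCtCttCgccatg
Atp5g2: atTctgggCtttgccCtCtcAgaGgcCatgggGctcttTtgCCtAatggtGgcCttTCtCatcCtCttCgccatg
Atp5g3: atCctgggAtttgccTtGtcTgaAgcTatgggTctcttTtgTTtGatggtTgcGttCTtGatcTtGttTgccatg
Over the last 225 coding bases, all 75 codons gave the same amino acid in each pair, while 84.9% of bases matched between Atp5g1 and Atp5g2, 80.0% between Atp5g1 and Atp5g3 and 78.7% between Atp5g2 and Atp5g3. The longest run shared anywhere in the coding sequences was 21 bases. The genes lie on chromosomes 11, 15 and 2.

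Atp5g1 had 902, 614 and 766 CPM in Trp/Trp and 593, 705 and 392 CPM in Arg/Arg F4/80+ preparations. In kidney it had 216, 213 and 225 CPM in Trp/Trp and 228, 212 and 232 CPM in Arg/Arg mice. Every F4/80+ value was above every kidney value, and the log2 fold change was 1.70 ± 0.15 (edgeR adjusted p = 6.4e-07). Atp5g3, the most abundant of the 3, rose by 0.56 ± 0.12 (edgeR adjusted p = 0.00108), whereas Atp5g2 had 0.12 ± 0.15 and did not pass. Of the counts of the 3 genes, Atp5g1 thus took 35.5 ± 3.69% in F4/80+ preparations, against 19.6 ± 0.304% in kidney (SD, n = 6 each). Atp5g2 took 6.71 ± 0.712% in F4/80+ preparations and 11.1 ± 0.452% in kidney, and Atp5g3 57.8 ± 4.12% in F4/80+ preparations and 69.4 ± 0.386% in kidney. Other annotated transcripts of Atp5g1 differ much in length, so its level is not given per kb here.

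**Figure D5:**
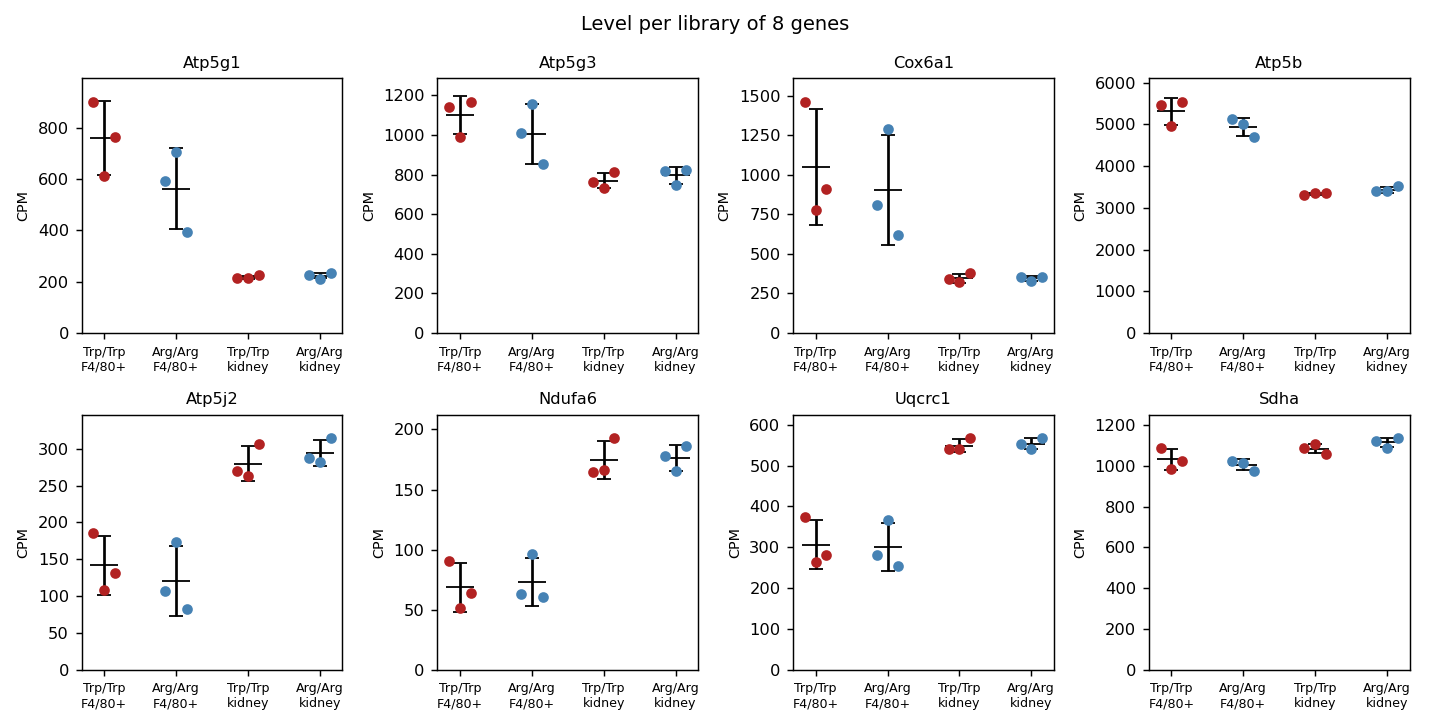
CPM over nuclear protein-coding counts of 8 genes in each library, with the mean ± SD of 3 replicates per group. Atp5g1, Atp5g3, Cox6a1 and Atp5b were higher and Atp5j2, Ndufa6 and Uqcrc1 lower in every F4/80+ library than in any kidney library; Sdha overlapped.

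In complex IV, 2 of 15 subunits were higher and 3 lower in F4/80+ preparations, against 32.3% and 32.0% of all genes. Cox6a1, the form of subunit 6a found outside heart and muscle, had 1463, 776 and 911 CPM in Trp/Trp and 806, 1292 and 619 CPM in Arg/Arg F4/80+ preparations, against 321 to 378 CPM in kidney. The groups did not overlap, and the log2 fold change was 1.63 ± 0.21 (edgeR adjusted p = 1.33e-05). Cox7b, an X-linked small subunit, had 635, 537 and 618 CPM in Trp/Trp and 512, 583 and 330 CPM in Arg/Arg F4/80+ preparations, against 274 to 307 CPM in kidney (1.01 ± 0.14). Cox7a2l, which joins complexes III and IV in supercomplexes, rose by 0.54 ± 0.11, with 141 to 234 CPM in F4/80+ preparations, against 120 to 141 CPM in kidney.

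The complex IV genes that fell included isoforms of low level. Ndufa4l2 had 0 to 3.05 CPM in F4/80+ preparations, against 3.58 to 6.01 CPM in kidney, and fell by 1.88 ± 0.38 (edgeR adjusted p = 0.000709). Cox6b2 had 1.47 to 3.94 CPM in F4/80+ preparations, against 5.93 to 8.999 CPM in kidney, and fell by 1.35 ± 0.20. Cox6c, an abundant small subunit, fell by 0.55 ± 0.14. In each isoform family the common form led in both sample types: Cox4i1 made up 99.95% of Cox4 counts in F4/80+ preparations and 99.89% in kidney, and Cox6b1 made up 99.1% and 98.2% of Cox6b counts. Cox4i1 itself, at 571 to 1227 CPM in F4/80+ preparations and 737 to 865 CPM in kidney, did not pass (0.30 ± 0.18), nor did Cox6b1, Cox7a2, Cox7a1, Cox8a, Cox4i2 or Ndufa4.

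In complex I, 13 of 37 subunits were higher and 11 lower, shares near the 32.3% and 32.0% of all genes. Ndufa11 had 135, 88.2 and 115 CPM in Trp/Trp and 92.6, 111 and 56.1 CPM in Arg/Arg F4/80+ preparations, against 45.9 to 52.1 CPM in kidney (1.16 ± 0.16, edgeR adjusted p = 2.54e-05). Ndufa10, another accessory subunit of the membrane arm, had 396 to 561 CPM in F4/80+ preparations, against 244 to 273 CPM in kidney (0.97 ± 0.12). Both lay above every kidney value in all F4/80+ libraries. Ndufa6, an accessory subunit of the matrix arm, had 90.9, 51.0 and 64.2 CPM in Trp/Trp and 62.7, 96.4 and 60.4 CPM in Arg/Arg F4/80+ preparations, against 164 to 193 CPM in kidney (-1.17 ± 0.17, edgeR adjusted p = 4.7e-05). Ndufb6 had 35.7 to 53.3 CPM in F4/80+ preparations, against 89.9 to 106 CPM in kidney (-1.03 ± 0.13). Both lay below every kidney value in all F4/80+ libraries.

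The core subunits of complex I had values on both sides of 0. Ndufs8, an iron-sulfur subunit, rose by 0.80 ± 0.16 and Ndufs1 by 0.33 ± 0.11, whereas Ndufv2, an iron-sulfur subunit of the NADH-oxidising end, fell by 0.65 ± 0.10. Ndufs3, Ndufs7 and Ndufv1, the NADH-binding subunit, had 0.08 ± 0.09, 0.34 ± 0.20 and -0.20 ± 0.14 and did not pass. Of the 8 assembly factors 3 rose, namely Ndufaf3 by 0.93 ± 0.15, its partner Ndufaf4 by 0.80 ± 0.14 and Ndufaf5 by 0.96 ± 0.12, and none fell. Over all genes, 32.3% were higher and 32.0% lower. Ndufaf5 had 23.0, 31.1 and 37.5 CPM in Trp/Trp and 27.0, 23.1 and 21.04 CPM in Arg/Arg F4/80+ preparations, against 13.3 to 17.1 CPM in kidney.

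In complex III, 3 of 8 genes were higher and 2 lower, against 32.3% and 32.0% of all genes. Uqcrh had 622, 446 and 517 CPM in Trp/Trp and 429, 541 and 294 CPM in Arg/Arg F4/80+ preparations, against 284 to 305 CPM in kidney (0.80 ± 0.15, edgeR adjusted p = 0.000346). The lowest F4/80+ value lay within the kidney range. The core protein Uqcrc1 had 374, 263 and 280 CPM in Trp/Trp and 282, 367 and 254 CPM in Arg/Arg F4/80+ preparations, against 540 to 567 CPM in kidney (-0.73 ± 0.14), whereas its partner Uqcrc2 rose by 0.35 ± 0.11. Uqcr10 rose by 0.65 ± 0.20, with values that overlapped, and Uqcrb fell by 0.78 ± 0.10 without overlap.

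In complex II, 1 of 4 genes passed the test, as higher, although the sum of the 4, without TMM, was lower in every F4/80+ library. Over all genes, 32.3% passed as higher and 32.0% as lower. Sdhd, a membrane anchor, had 344, 367 and 433 CPM in Trp/Trp and 357, 357 and 314 CPM in Arg/Arg F4/80+ preparations, against 296 to 318 CPM in kidney (0.35 ± 0.10, edgeR adjusted p = 0.0065). Its fellow anchor Sdhc had -0.30 ± 0.13 and the iron-sulfur subunit Sdhb -0.22 ± 0.14, and neither passed. Sdha had 976 to 1088 CPM in F4/80+ preparations, against 1061 to 1136 CPM in kidney (0.02 ± 0.10 with TMM and -0.11 without).

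Genes that surround the respiratory chain were described from lists made alongside. Of 16 regulators of mitochondrial gene expression, 6 were higher and 4 lower in F4/80+ preparations. Over all genes tested, 32.3% were higher and 32.0% lower, the shares to set beside this count and the like counts below. Esrra, an orphan nuclear receptor that drives oxidative phosphorylation genes, had 13.0 to 19.7 CPM in F4/80+ preparations, against 153 to 168 CPM in kidney (-3.19). The level was low in all 6 F4/80+ libraries alike, and how far the counting in each table entered this value was not tested. Ppargc1a, a coactivator that works through Esrra, had 422, 645 and 486 CPM in Trp/Trp and 543, 358 and 301 CPM in Arg/Arg F4/80+ preparations, against 127 to 153 CPM in kidney (1.83). The related receptor Esrrg rose by 1.32. None of the 16 passed by genotype in either sample type. Of 14 citric acid cycle enzymes, 7 rose and none fell between sample types, with Mdh2, malate dehydrogenase, highest at 0.86, and none passed by genotype. Of 39 further assembly factors tested, 11 rose and 16 fell between sample types, from Fmc1 of ATP synthase at 1.13 to the complex IV factor Cox11 at -1.28. Cycs, cytochrome c, had 205, 218 and 214 CPM in Trp/Trp and 247, 231 and 235 CPM in Arg/Arg kidneys, without overlap (-0.18, edgeR adjusted p = 0.843).

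Promoters of these genes are known to bind NRF1, a factor that recognises a palindrome rich in G and C. RefSeq promoters of GRCm38.p6 were matched for 75 of the 92 genes, and the 250 bases before the start were searched on both strands. The NRF1 motif was taken as GCGCANGCG, or CGCNTGCGC on the other strand, and where its middle letter is T the matches of both strands overlap. It was found in 15 of 75 genes (20%), against 5.16% of 32851 promoters and 10.9% of 12128 expressed genes. For this and the motifs below, a gene counted if any of its promoters held the motif. The share of all promoters counts each promoter singly, so it is an unlike measure. A form with a further C at its end was searched first and then shortened. That form was found in 14 of 75 genes (18.7%), against 3.74% of all promoters and 7.97% of expressed genes. The shorter form stood before 7 of 27 genes higher in F4/80+ preparations, 4 of 14 genes lower and 4 of 33 of the others. The 4 windows of 40 bases below have the motif in capitals. They are shown because Cox6a1 and Ndufa11 rose and Ndufa8 and, less firmly as given above, Atp5k fell between sample types. Like letters thus stand before both kinds.
Cox6a1, chr5:115349096-115349135, minus strand: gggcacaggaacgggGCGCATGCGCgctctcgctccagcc
Ndufa11, chr17:56717687-56717726, plus strand: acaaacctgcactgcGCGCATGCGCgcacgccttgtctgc
Ndufa8, chr2:36049343-36049382, minus strand: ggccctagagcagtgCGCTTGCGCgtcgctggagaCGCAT
Atp5k, chr5:108434425-108434464, minus strand: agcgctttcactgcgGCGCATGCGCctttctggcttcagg
The first motif shown began 162, 60, 29 and 50 bases before the start of Cox6a1, Ndufa11, Ndufa8 and Atp5k, and the last capitals of the Ndufa8 window begin a further match that runs past it. Ndufa8, an accessory subunit on the intermembrane space side of complex I, fell by 0.71 ± 0.14 between sample types. The ETS motif bound by GABPA was searched as CCGGAAG or on the other strand as CTTCCGG. It was found in 14 of 75 genes (18.7%), against 6.91% of all promoters and 13.6% of expressed genes. The YY1 motif, searched as AANATGGCG or on the other strand as CGCCATNTT, was found in 3 of 75 (4%), against 1.12% and 2.14%. A match describes the letters and is no sign of binding.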

How the data were processed

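Polyadenylated RNA was sequenced, per the labels, and a table per sample type held raw counts per gene and library as the authors deposited them. STAR, DRAGEN, DESeq2 and mm10 are named per the submitters' processing notes, with no version or role, and no annotation release is named there. The deposited log2 fold change was read with Trp/Trp on top, the sign of the kidney table being reversed for this, and the deposited adjusted p-value was read as it stood.

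Counts were fitted with R 4.3.3 and edgeR 4.0.16: filterByExpr (minimum count 10), TMM scaling, the quasi-likelihood test and Benjamini-Hochberg adjustment over all genes, threshold 0.05. Genotype was fitted within each table, and sample type and the interaction as 4 group means over 12 libraries on 13733 shared nuclear protein-coding genes. The SE is the log2 fold change over the root of the F statistic. DESeq2 1.42.0, limma 3.58.1, other scalings and filters, single libraries left out and a replicate term were alternatives. The procedure was tested on simulated data. Strand use in counting is not given, so overlapping antisense genes cannot be told apart.

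Members and lists were chosen with earlier results of these data known. Named genes were the 3 of smallest p per complex by genotype, the 2 extremes per complex in each direction that passed by sample type, the highest per kb, isoform families and up to 3 per further list; others were named after their values were seen. Replicate numbers did not pair libraries. Values of 1 complex I gene are not reported here.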

Additional observations from a re-analysis of the deposited data

Results flagged for a closer look

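The F4/80+ table also held 7 processed pseudogenes whose symbols match the name pattern, outside the 90 protein-coding genes. They had 120 counts in the lowest library and 194 in the highest, or 0.0504 to 0.0819% of the counts of the 90 genes. They were left out above, and the kidney table, which held protein-coding genes alone, had no such rows. Among 18 sums of the oxidative phosphorylation genes by complex over the 6 libraries of a sample type, 0 had a library far from the others. Among 20 sums of cell markers, 5 did, and since the sums share libraries they are not independent of one another. Trp/Trp kidney replicate 1 lay far above the other kidneys with 729 CPM of fibroblast and pericyte markers, 88.8 CPM of lymphocyte markers and 59.9 CPM of fat markers. Arg/Arg kidney replicate 1 did so with 61.9 CPM of erythroid markers, against 23.0 to 34.3 CPM, and Trp/Trp F4/80+ replicate 2 with 11020 CPM of thick ascending limb markers, against 2587 to 5619 CPM.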

How the results depend on the processing

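The counts of oxidative phosphorylation genes called by genotype were 0 under every alternative run, in both sample types and in the interaction. Over all genes, DESeq2 called 15 in kidney, 14 in F4/80+ preparations and 7 for the interaction, and leaving out single libraries gave 0 to 580 for the interaction. Between sample types, 52 genes passed with all libraries, 46 to 59 with single libraries left out, 65 with limma-voom and 34 within Arg/Arg. The calls over all genes moved too. In the same order they were 8734 of 13578, 8099 to 9265 of 13516 to 13710, 9133 of 13578 and 6567 of 13427. The share of counts falls to 2.30% in kidney and 0.590% in F4/80+ preparations when all counts are the base, against 2.52% and 2.96%, since mitochondrial transcripts then enter it. Some named genes near 0 changed sign. Leaving out single libraries gave -0.11 to 0.021 for Sdhb in kidney, and in F4/80+ preparations by genotype -0.10 to 0.10 for Sdhd, -0.21 to 0.59 for Uqcr10, -0.36 to 0.11 for Uqcrc1 and -0.0087 to 0.48 for Uqcrh. Sdhd was also -0.013 with DESeq2 and -0.0018 with RLE scaling. Between sample types it gave -0.047 to 0.23 for Atp5g2, -0.056 to 0.24 for Cox8a and -0.018 to 0.044 for Sdha, which without scaling were -0.011, -0.0063 and -0.11. The causes were not tested. Of the 31 genes that the naming rule gave between sample types, the other 28 kept their sign throughout. Genes named after their values were seen are not in that count.

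Replicate numbers are shared by the groups, but same-numbered libraries did not deviate together (correlations of -0.08, -0.02 and -0.01 in kidney and -0.31, -0.49 and 0.18 in F4/80+ preparations). With a replicate block, 0 genes passed by genotype in either table and 47 of the 90 between sample types, against 8427 of all 13578 genes. Depth was 19.6 M counts or more per library. On nuclear protein-coding genes it was 6.88 to 11.1 M in F4/80+ libraries, against 17.8 to 49.99 M in kidney. The spread of F4/80+ libraries limits their genotype comparison.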
